A study of Homo sapiens with 6 samples.

Results

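Keratins and their intermediate filament partners were examined as 10 genes, KRT8, KRT18, KRT19, KRT7, KRT17, KRT80, KRT81, KRT86, VIM and PLEC, out of the 40205 gene symbols in the count table. The rows were taken by exact gene symbol, without pseudogenes, and all 10 were found. The genes were chosen by their read levels and log2 fold changes between the groups in these same 6 libraries, so those values are given as a description and no test of them is offered. RNA-seq was performed on 3 control samples (Control-1 to Control-3), which were not exposed to liposomes, and on 3 samples given cationic liposomes (CLs) over 24 h, named CLs-1 to CLs-3. Values of single samples are listed below in the order of these sample numbers. All 6 samples carry the label HepG2, a line derived from a human liver tumor, and were grown in the same serum-containing medium. The CLs were particles of the cationic lipid DOTAP, cholesterol and a PEG-coupled lipid. The sample labels give the dose as 120 μM, while the Discussion of the study gives the same figure in μg/ml. There it is the IC50, the midpoint of inhibition of cell viability over 24 h, which the study chose for its later experiments. The study calls the 6 samples independent, but neither it nor the labels say whether the 3 samples of a group were separate cultures, so the spread between them, which is all that the p-values measure, may be technical. The libraries held between 11418527 and 13998946 counts.

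The label of the cells was checked against marker genes. None of 16 hepatocyte markers, among them ALB, AFP, APOA1, APOB and TTR, had enough reads to be tested. The 16 together had 164 counts in CLs-1 and between 7 and 23 in each of the other 5 libraries, in which ALB had 0. APOH and TTR had 0 counts in all 6 libraries. The defining genes of hepatocytes were thus absent or nearly so, and the cells are called here by their label only. CLs-1 stood apart in other markers too. The 8 blood and endothelial markers summed to 501 counts in CLs-1 and to between 5 and 47 in the other libraries, and the 7 steroidogenic markers to 482 against 11 to 32. Most of the 501 were of the globin genes HBB (324), HBA2 (118) and HBA1 (34). The endothelial markers PECAM1, VWF and CDH5 were not raised in CLs-1, with 1, 2 and 0 counts, and CDH5 had 36 in Control-3. Of the stromal markers, COL1A2 was almost limited to CLs-1, with 1044 counts there beside a maximum of 2 in the rest, whereas COL3A1 was high in all 6 libraries. The part of these other transcripts in the keratin values was not tested, and values without CLs-1 are given where leaving it out moved a mean by more than 1.5 times or changed a direction.

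Intermediate filaments are the rope-like part of the cytoskeleton. Keratins build them in epithelial cells, always as a pair of one acidic type I chain and one basic or neutral type II chain. KRT8 (type II) and KRT18 (type I) form the filaments of simple epithelia and are the keratins of normal hepatocytes. KRT7 (type II) and KRT19 (type I) mark bile duct and other ductal epithelia, KRT17 (type I) is a keratin of basal and stressed epithelia, and KRT80 (type II) is found near desmosomes. KRT81 and KRT86 are type II hair keratins. VIM encodes vimentin, which forms filaments by itself in mesenchymal cells and in many cultured cell lines, and PLEC encodes plectin, a very large linker that ties filaments to other parts of the cytoskeleton and to adhesions.

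Many of these messages resemble other loci, which limits how reads can be placed. Positions are those of GENCODE release 29 (GRCh38). KRT8 lies on the minus strand of chr12:52897187-52949954, and KRT8P33, a processed pseudogene, on the minus strand of chr5:123400922-123402344. KRT18 lies on the plus strand of chr12:52948871-52952901, and the processed pseudogene KRT18P17 on the minus strand of chr3:12787393-12788671. KRT81 lies on the minus strand of chr12:52285913-52291534, inside the span of KRT86 on the plus strand (chr12:52249300-52309163). Over the aligned coding sequence the identity was 93.8% between KRT8 and KRT8P33, 93.0% between KRT18 and KRT18P17, and 96.6% between KRT81 and KRT86. Of all windows of 50 bases in the KRT81 transcript, 38.4% occurred unchanged in KRT86 transcripts. For KRT8, 36.9% of windows occurred in a transcript of another gene, on either strand, and for KRT18 47.6%. The ends of KRT8 and KRT18 overlap on opposite strands, and 21.5% of the KRT18 windows were shared with KRT8 transcripts in this way. For VIM, 32.5% of windows were shared with its antisense partner VIM-AS1. KRT80 and PLEC were almost free of such windows, with 0.420% and 0.592%. Whether the counting used the strand is not given in the sources used here. KRT81 and KRT86 and the split of reads between parent genes and pseudogenes are therefore uncertain. The same holds for reads from the stretches that KRT8 shares with KRT18 and VIM with VIM-AS1, and for ratios computed from these genes.

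KRT8 and KRT18, the pair of simple epithelia, had the largest log2 fold changes among the 9 of the 10 genes that had enough reads for the fit. KRT8 had 1515, 1921 and 2264 CPM (the count relative to the TMM-scaled total of its library, in the usual CPM unit) in the control samples. In the CLs-treated samples it had 679.1, 997.6 and 790.6 CPM. Every CLs-treated sample lay below every control sample. The control mean was 1900.1 ± 374.6 CPM and the CLs-treated mean 822.4 ± 161.6 CPM (SD, n = 3 in each), a log2 fold change of -1.21 (standard error 0.19), or 2.31-fold lower. In bulk samples such a difference may come from fewer cells that express the gene or from less RNA per cell, and these cannot be told apart.

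KRT18, the type I partner of KRT8, showed nearly the same difference. Its CPM was 1659, 1985 and 2516 in the control samples. After CLs it was 735.8, 963.0 and 1003. The groups did not overlap, and the highest sample of all was Control-3 for both genes of the pair. The mean was 2053 ± 432.8 CPM in the control group and 900.7 ± 144.2 CPM in the CLs-treated group (SD, n = 3 in each). The log2 fold change was -1.19 (standard error 0.19). The ratio of KRT8 to KRT18 counts overlapped between the groups. It was 0.913, 0.968 and 0.90 in the control samples and 0.923, 1.04 and 0.788 in the CLs-treated samples.

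The pseudogene rows of this pair were lower after CLs as well. The 48 KRT8 pseudogenes in the table held between 17.9% and 20.7% as many counts as KRT8 itself in the control samples and between 21.3% and 23.7% in the CLs-treated samples. The 64 KRT18 pseudogenes held between 8.25% and 10.0% as many as KRT18 in the control samples and between 7.56% and 9.22% in the CLs-treated samples. The one with the most counts was KRT8P3 for KRT8 and KRT18P17 for KRT18. KRT8P3 had 1181, 1578 and 1743 counts in the control samples and 598, 850 and 609 in the CLs-treated samples, and KRT18P17 had 342, 404 and 499 against 163, 174 and 191. With edgeR the log2 fold change was -1.21 (adjusted p = 0.0751) for KRT8P3 and -1.32 (adjusted p = 0.0440) for KRT18P17. By the criteria given below KRT18P17 was thus called lower, as were 0.0731% of all tested genes. Reads from stretches that a parent shares with its pseudogenes cannot be told apart here. The parents were chosen by their fold changes, so these p-values are not independent of that choice and nothing is read from them. With the counts of parents and pseudogenes summed, the log2 fold changes of KRT8 and KRT18 were -1.18 and -1.20.

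**Figure D1:**
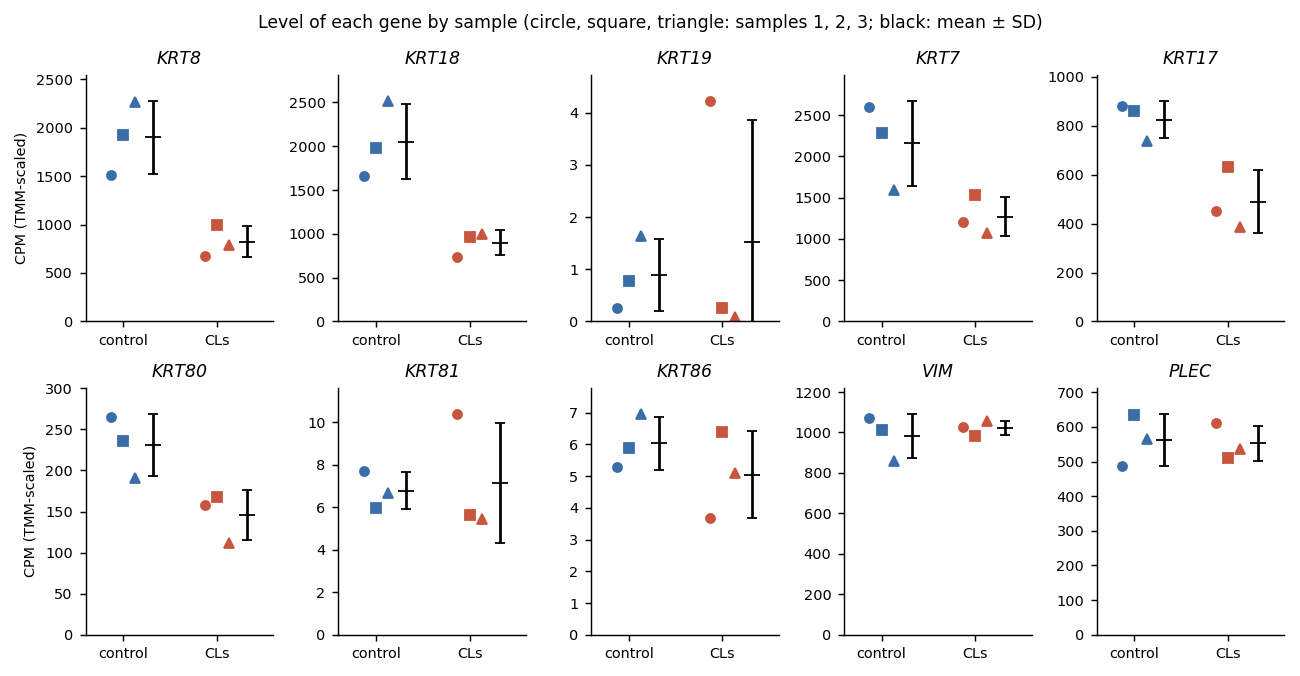
TMM-scaled CPM of the 10 genes in each sample, on a linear axis that starts at 0 in every panel. Points are samples (circle, square and triangle for samples 1, 2 and 3 of a group) and the black bars are mean ± SD over 3 samples, cut off at 0 for KRT19. KRT8, KRT18, KRT7, KRT17 and KRT80 were lower in all CLs-treated samples than in any control sample, and the other 5 genes overlapped between the groups.

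KRT7, KRT17 and KRT80 were also lower after CLs, by smaller folds. KRT7 had 2595, 2285 and 1594 CPM in the control samples and 1209, 1531 and 1074 CPM in the CLs-treated samples. The groups did not overlap but came close to each other at Control-3 and CLs-2. The means were 2158 ± 512.1 and 1271 ± 234.7 CPM (SD, n = 3 in each), and the log2 fold change was -0.76 (standard error 0.20). KRT17 had 878.7, 858.6 and 738.2 CPM in the control samples and 450.6, 633.4 and 384.5 CPM in the CLs-treated samples, with means of 825.1 ± 76.0 and 489.5 ± 128.9 CPM (SD, n = 3 in each) and a log2 fold change of -0.75 (standard error 0.19). The control samples of KRT17 were close together, with a coefficient of variation of 9.21%, and the CLs-treated samples were spread, with 26.3%. KRT80 had 265.5, 236.0 and 190.6 CPM in the control samples and 158.3, 167.8 and 111.7 CPM in the CLs-treated samples. The means were 230.7 ± 37.7 and 145.9 ± 30.0 CPM (SD, n = 3 in each). Its log2 fold change was -0.66 (standard error 0.18), and the groups did not overlap.

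KRT19, the usual type I partner of KRT7 in ductal cells, was near the floor. It had 3, 9 and 19 counts in the control samples and 61, 3 and 1 counts in the CLs-treated samples, and it did not pass the filter on low counts. A level of 3 counts corresponds to between 0.208 and 0.263 CPM at the depth of these libraries, and this floor covers counting error only. CLs-1 held the highest value, the library in which some markers of other cell types, such as globin genes, were also high. Without it the mean of the CLs-treated group went from 1.52 ± 2.34 CPM (SD, n = 3) to 0.173 CPM.

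The 2 hair keratins were low. KRT81 had 89, 69 and 78 counts in the control samples and 150, 65 and 62 in the CLs-treated samples. CLs-1 was again the highest, and the log2 fold change went from 0.08 (standard error 0.28) with all samples to -0.30 without CLs-1. KRT86 had 61, 68 and 81 counts in the control samples and 53, 74 and 58 in the CLs-treated samples. Its log2 fold change was -0.26 (standard error 0.26). In CLs-1 KRT81 was at its highest and KRT86 at its lowest. With the counts of these near copies summed, the log2 fold change was -0.07.

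VIM and PLEC overlapped between the groups. VIM had 1069, 1014 and 858.7 CPM in the control samples and 1026, 985.0 and 1056 CPM in the CLs-treated samples. All 3 CLs-treated samples lay inside the range of the control samples, and the log2 fold change was 0.06 (standard error 0.14). PLEC had 486.0, 635.1 and 564.1 CPM in the control samples and 610.1, 511.6 and 535.8 CPM in the CLs-treated samples. They too lay inside the control range, and the log2 fold change was -0.02 (standard error 0.15). The sign of the VIM and PLEC values changed with the samples or the scaling used, with ranges from -0.03 to 0.13 and from -0.12 to 0.07.

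Of the 10 genes, 9 had enough reads for the fit across all genes, and their median log2 fold change was -0.66, beside 0.01 for all 15047 genes tested. A gene was called when its adjusted p-value was under 0.05 and its fold change above 1.5 or below 0.67. The quasi-likelihood test of edgeR called 0 of the 9, beside 0.0864% of all tested genes (0.0133% higher and 0.0731% lower). An unadjusted p-value under 0.05 was found for 5 of the 9, all of them lower, beside 5.81% of all tested genes in either direction and 3.62% lower. The groups did not overlap in 5 of the 9, beside 11.5% of all tested genes. In these 5 every CLs-treated sample was the lower one (6.18% of all tested genes), and in 0 of the 9 the higher one (5.34%). In DESeq2's Wald test KRT8, KRT18, KRT7 and KRT17 were called, beside 0.711% of its tested genes. With a term for the replicate number, edgeR called KRT8 and KRT18, beside 0.452%. All these counts and calls follow from the choice of the genes and nothing is read from them. The study, which used EBSeq with the same fold criterion and an FDR under 0.05, lists KRT8 among its differentially expressed genes.

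**Figure D2:**
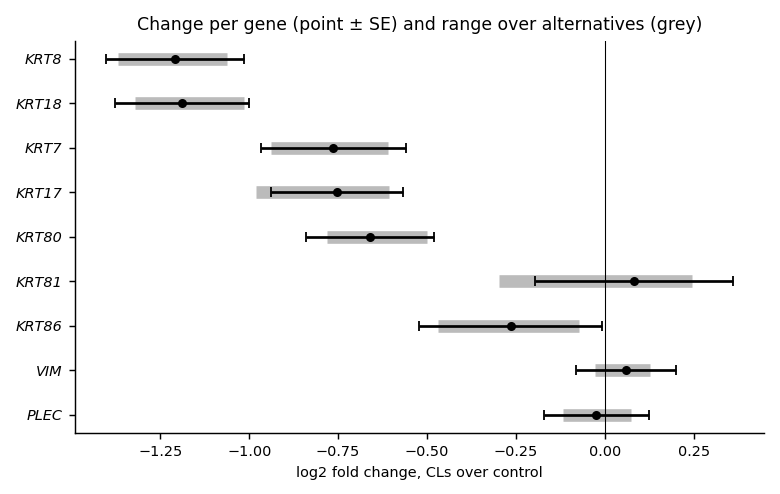
Log2 fold change of CLs-treated over control samples for the 9 genes with enough reads. Points are the edgeR estimates with their standard errors, and the grey bars span the values under other scalings, filters and tests and with each sample left out. KRT8 stayed between -1.37 and -1.06 and KRT18 between -1.32 and -1.02, while KRT81, VIM and PLEC crossed 0.

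The 8 keratins together took 0.677%, 0.721% and 0.734% of all counts in the control samples. In the CLs-treated samples they took 0.335%, 0.426% and 0.337%. KRT8, KRT18, KRT7 and KRT17 made up between 94.6% and 97.2% of these keratin counts in every library. Since keratins pair type II with type I chains, the balance of the 2 types was computed from CPM per kilobase of transcript. Type II over type I was 1.42, 1.27 and 0.986 in the control samples and 1.41, 1.39 and 1.16 in the CLs-treated samples. The ranges of this ratio overlapped. The ratio of KRT18 to VIM counts was 1.55, 1.96 and 2.93 in the control samples and 0.717, 0.978 and 0.950 in the CLs-treated samples, with no overlap. This separation and that of the keratin share restate the fold changes by which the genes were chosen, and nothing is read from them.

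**Figure D3:**
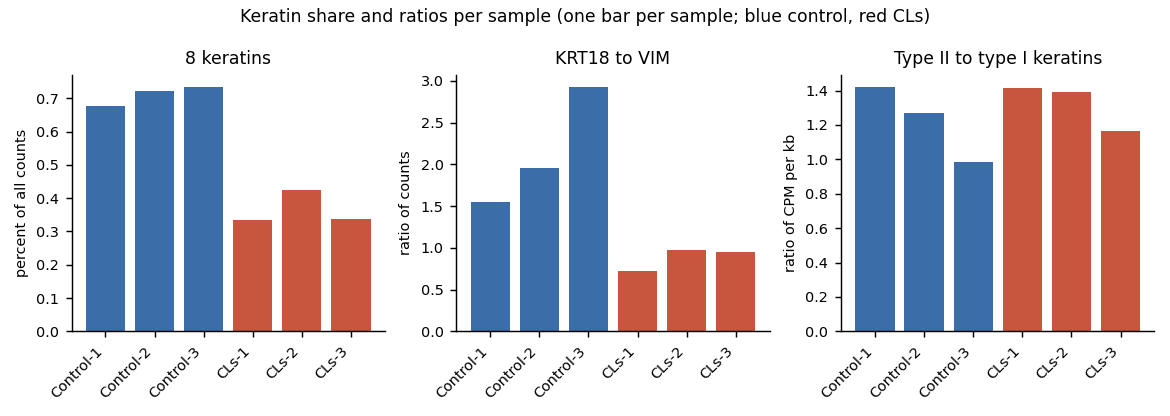
Share of all counts held by the 8 keratins (left), ratio of KRT18 to VIM counts (middle) and ratio of type II to type I keratins in CPM per kilobase (right), with 1 bar for each sample, blue for control and red for CLs-treated. The keratin share was between 0.677% and 0.734% in the control samples and between 0.335% and 0.426% in the CLs-treated samples, whereas the ratio of the types overlapped between the groups. The left and middle panels restate the fold changes by which the genes were chosen.

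Inside each group the keratins did not vary as one block. Relative to the geometric mean of its group, KRT8 was at 0.808 in Control-1 and 1.21 in Control-3, and KRT18 at 0.820 and 1.24. KRT7 ran the other way, at 1.23 in Control-1 and 0.754 in Control-3, and KRT17 and KRT80 were also lowest in Control-3. Among the CLs-treated samples, KRT8 and KRT18 were lowest in CLs-1, at 0.836 and 0.825. KRT7, KRT17 and KRT80 were lowest in CLs-3, at 0.854, 0.804 and 0.779. The ratio of KRT8 to KRT7 counts was wide in the control group, with 0.584, 0.841 and 1.42, and narrower in the CLs-treated group, with 0.562, 0.652 and 0.736. With 3 samples in a group, this is a description of these libraries.

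**Figure D4:**
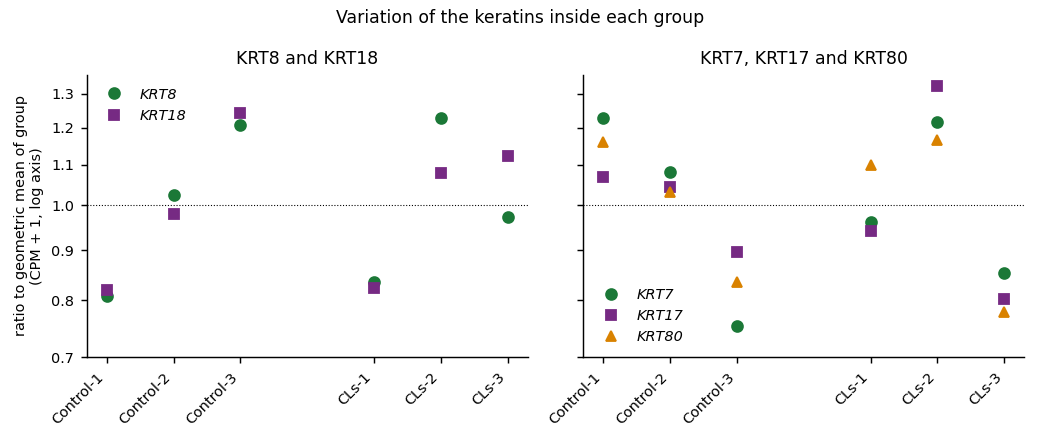
Ratio of each sample to the geometric mean of its own group, from CPM + 1 on a log axis, for KRT8 and KRT18 (left) and for KRT7, KRT17 and KRT80 (right). Each point is 1 sample. KRT8 and KRT18 were lowest in Control-1 and CLs-1, and KRT7, KRT17 and KRT80 in Control-3 and CLs-3. Among the CLs-treated samples KRT8, KRT7, KRT17 and KRT80 were highest in CLs-2 and KRT18 in CLs-3.

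Levels of different genes were compared as CPM per kilobase of the principal transcript. In the control group the order was KRT18 (1315 ± 277.1, SD, n = 3), KRT7 (1230.4 ± 292.0), KRT8 (893.8 ± 176.2), VIM (525.0 ± 58.5), KRT17 (499.8 ± 46.0), KRT80 (59.8 ± 9.77), PLEC (36.8 ± 4.89), KRT81 (3.52 ± 0.461), KRT86 (2.72 ± 0.378) and KRT19 (0.640 ± 0.497). The sample ranges of KRT18 and KRT7, of KRT7 and KRT8, of VIM and KRT17, and of KRT81 and KRT86 overlapped, and the other neighbours in this order were separate. In the CLs-treated group KRT7 came first with 724.7 ± 133.8 CPM per kilobase, followed by KRT18 with 576.6 ± 92.3 and VIM with 547.3 ± 19.1. These 3 overlapped as neighbours, and VIM lay above all samples of KRT8, which had 386.8 ± 76.0. KRT17 had 296.5 ± 78.1, KRT80 37.8 ± 7.77 and PLEC 36.2 ± 3.37 CPM per kilobase. KRT81 (3.70 ± 1.46) and KRT86 (2.28 ± 0.615) followed, and KRT19 had the lowest mean. The sample ranges of KRT8 and KRT17, of KRT80 and PLEC, of KRT81 and KRT86, and of KRT86 and KRT19 overlapped in this group, and in CLs-1 KRT19 (3.04 CPM per kilobase) lay above KRT86 (1.66).

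The rest of the filament system was read from 4 lists of 93 genes in all. These genes are no part of the 10, and they were tested in the same fit. The lists were chosen with earlier results of these data known, so they are not independent of the comparison between the groups. Of the 32 genes with enough reads, edgeR called 0 after Benjamini-Hochberg adjustment over the whole table. An unadjusted p-value under 0.05 was found for 5, each of them lower after CLs, beside 5.81% of all tested genes in either direction and 3.62% lower. DESeq2's Wald test called 1, PKP2, beside 0.711% of its tested genes. The median log2 fold change of the 32 was -0.16, beside 0.01 for all tested genes.

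Among 47 other keratins only KRT10 and KRT16 had enough reads, and 21 had 0 counts in all 6 libraries. KRT10, a type I keratin of differentiating epidermis, had 30.1 ± 6.36 CPM in the control group and 32.5 ± 3.94 CPM in the CLs-treated group (SD, n = 3), with an adjusted p-value of 0.998 from edgeR. KRT16 had about 1 CPM, with 0.807 ± 0.431 and 1.17 ± 0.193. The pairing partners of KRT17 in stratified epithelia, KRT5 and KRT6A, were not among the genes tested. Of 14 other intermediate filament genes 8 were tested, and the highest were LMNA, the gene of the nuclear lamins A and C, SYNM, which encodes synemin, and LMNB1, the gene of lamin B1. Their log2 fold changes were 0.02, 0.06 and -0.09, with standard errors of 0.16, 0.22 and 0.14. Without CLs-1 the SYNM mean was 98.5 CPM in the CLs-treated group, below the 107.7 CPM of the control group.

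Plectin belongs to the plakins, and of 14 plakins and filament linkers 13 were tested. DST, the gene of dystonin, DSP, the gene of desmoplakin, and PNN, a desmosome-associated nuclear protein, had the highest levels of the list. Their log2 fold changes were -0.17, -0.30 and 0.01. The 3 genes at an unadjusted p-value under 0.05 were PPL (periplakin), EPPK1 (epiplakin, a keratin-binding plakin) and MACF1, with log2 fold changes of -0.64, -0.44 and -0.36. The adjusted p-values from edgeR were 0.500, 0.637 and 0.801, and these genes were named after their values were seen.

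Desmosomes anchor keratin filaments at cell contacts, and hemidesmosomes anchor them at the base of the cell. Of 18 such genes 9 were tested, with a median log2 fold change of -0.08. PKP2, the gene of plakophilin 2, came closest to the threshold. It had 55.6, 51.2 and 48.2 CPM in the control samples and 31.5, 21.9 and 28.2 CPM in the CLs-treated samples. The groups did not overlap, as in 11.5% of all tested genes in either direction. The fit of edgeR put its log2 fold change at -0.92, with a standard error of 0.16 and an adjusted p of 0.0751. In PERP the groups did not overlap either, but every CLs-treated sample was the higher one. Its log2 fold change was 0.27 and its adjusted p from edgeR 0.869. For PKP4 the log2 fold change was -0.39 and the adjusted p 0.698, also from edgeR. The genes with the highest levels, JUP (plakoglobin), CD151 and DSG2 (desmoglein 2), had log2 fold changes of -0.34, -0.08 and 0.21, and their groups overlapped. Without CLs-1 the sign turned for CD151 (375.0 CPM in the control group and 396.8 CPM in the CLs-treated group) and for DSG2 (154.9 and 149.1 CPM). JUP had 857.8, 1217 and 1607 CPM in the control samples and 711.6, 1023 and 1172 CPM in the CLs-treated samples, so that Control-3 was its highest sample, as it was for KRT8 and KRT18.

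**Figure D5:**
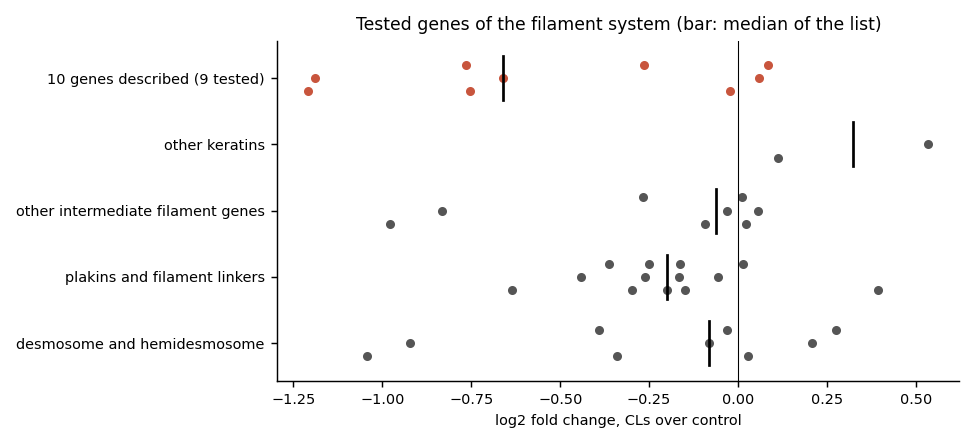
Log2 fold change of CLs-treated over control samples for the 9 tested genes described here (red) and for the tested genes of 4 other lists of the filament system (grey), each point 1 gene and each bar the median of its list. The medians were -0.66 for the 9 genes, 0.32 for other keratins (2 genes), -0.06 for other intermediate filament genes, -0.20 for plakins and linkers and -0.08 for desmosome and hemidesmosome genes.

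The genes whose pattern was most like that of KRT8 were sought among 9896 genes with at least 10 CPM on average, by Pearson's correlation of log2(CPM + 1) over the 6 samples. The 5 closest were KRT8P3, FHL2, C8orf4, SEC14L1 and KRT8P45, with r between 0.989 and 0.993. The 6 samples form 2 groups that differ in KRT8, so these values describe the pattern over the samples and are no test. FHL2, which encodes a LIM-domain protein, had 397.3, 431.7 and 513.6 CPM in the control samples and 263.0, 334.4 and 287.2 CPM in the CLs-treated samples, and SEC14L1 ranged only from 180.0 to 201.0 CPM. For KRT19 the closest were CDKAL1, RAB6A, C1orf112, UBA6 and FKBP9, with r between 0.987 and 0.991, and all 5 had their highest value in CLs-1.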

How the data were processed

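Total RNA of 3 control and 3 CLs-treated samples was sequenced single-end on an Ion Proton instrument. The authors mapped filtered reads with MapSplice and deposited 1 table of raw counts for 40205 gene symbols, not normalized. The submitters' processing notes also name HTSeq 0.6.1 and the builds hg19 and GRCh37, with no role given. The annotation release, strand setting and treatment of reads matching several places are not given in the sources used here. All 6 columns were used, with totals between 11418527 and 13998946 counts.

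Genes kept by filterByExpr (15047) were scaled by TMM and compared between the groups, with no covariate, by the quasi-likelihood F test of edgeR 4.0.16 (R 4.3.3), with Benjamini-Hochberg adjustment. The fold change criteria (above 1.5 or below 0.67) follow the study's methods, whose EBSeq was not installed. Standard errors were derived from the F statistic. The script was tested on simulated data. Transcript lengths and the sequences compared came from GENCODE release 29 (GRCh38), another build than that of the counts, so no coordinate of the reads is used. The windows compared had 50 bases.

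The genes and lists were chosen with earlier results of these data known. From each list the text names genes called, those at an unadjusted p-value under 0.05 (added after their values were seen) and the 3 tested genes with the highest mean CPM. It also names the 5 genes most like KRT8 and KRT19, and for KRT8 and KRT18 the pseudogene with the most counts. KRT4, CDH1, EPCAM, FN1, COL1A2, PERP and the single blood and endothelial markers were named after their values were seen. Alternatives were other scalings and filters, DESeq2 1.42.0, the replicate number as a block, each sample left out, and summed near copies. Some sequences and genes of the lists are not reported here.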

Additional observations from a re-analysis of the deposited data

How the results depend on the processing

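The direction of KRT8, KRT18, KRT7, KRT17, KRT80 and KRT86 was lower in every alternative run, and 119 of 120 values of the 9 tested genes moved by less than the spread between replicates. The exception was KRT81 without CLs-1, at -0.30. KRT19, which had no value with the main filter, had log2 fold changes between 0.41 and 1.36 in the 5 alternatives that kept it, all of them with CLs-1 included. The median log2 fold change of the 9 tested genes lay between -0.78 and -0.50 when each sample was left out. The number of genes called was 2 higher and 11 lower over all tested genes. Library totals only gave 6 lower. DESeq2's Wald test called 16 higher and 91 lower genes, 4 of the 10 genes described (KRT8, KRT18, KRT7 and KRT17) and 1 gene of the 4 other lists (PKP2). Without a filter on low counts, which left 25432 genes in the fit, 58 were higher and 113 lower. Among them were 5 of the 10 (KRT80 in addition) and 2 of the other lists (KRT4 and PKP2). Median-of-ratios scaling called 3 genes higher and 15 lower over all tested genes, with 2 of the 10 (KRT8 and KRT18). With each sample left out in turn, between 1 and 3 genes were called higher and between 2 and 6 lower, and 0 of the 10 and 0 of the other lists. With the replicate number as a block, 12 genes were higher and 56 lower, with 2 of the 10 (KRT8 and KRT18) and 1 of the other lists (PKP2). In each of these runs the calls among the 10 follow from the choice of the genes, and nothing is read from them. Deviations from the group means correlated across genes by 0.0998, 0.122 and 0.333 for samples numbered 1, 2 and 3, and every sample correlated best with its own number. The value for number 1 fell only just short of 0.1, the limit that was applied, so this limit does not settle whether the samples are paired. As no label says what a number shares, they were not treated as paired in the main fit. The run with the block, given above, called more genes. The cause of these differences was not tested. Depth limits KRT19, KRT81 and KRT86, which had 150 counts or fewer in every library.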

Other observations

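Other epithelial and mesenchymal genes were read beside the keratins. The cells held VIM together with abundant keratins, while CDH1, the gene of E-cadherin, had between 0 and 9 counts in each library and EPCAM between 0 and 7. CDH2, the gene of N-cadherin, had 91.2 ± 24.4 CPM in the control group and 79.0 ± 17.7 CPM in the CLs-treated group (SD, n = 3 in each). S100A4 had 888.9 ± 42.7 and 1079 ± 255.0 CPM, and FN1, the gene of fibronectin, 48.3 ± 13.1 and 136.0 ± 181.6 CPM, with 4991 counts in CLs-1 and between 282 and 701 in the other libraries. Without CLs-1 the FN1 mean of the CLs-treated group was 31.2 CPM, below that of the control group. None of the 12 tested genes of this list of 15 was called by edgeR or by DESeq2, which called 0.0864% and 0.711% of all their tested genes. An unadjusted p-value under 0.05 was found by edgeR for 5.81% of all tested genes. At an unadjusted p-value under 0.05, SNAI2, which encodes the repressor Slug, was higher, with a log2 fold change of 0.45, and TJP1, the gene of ZO-1, was lower, with -0.51. Their adjusted p-values from edgeR were 0.845 and 0.772.

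Of 16 transcription factors of epithelial cells 9 had enough reads, and 0 passed the criteria in edgeR or DESeq2, with 0 at an unadjusted p-value under 0.05. Over all tested genes 0.0864% passed in edgeR and 0.711% in DESeq2, and 5.81% had an unadjusted p-value under 0.05 in edgeR. With shares this small, 0 calls in a short list are no result about that list. The highest were TFAP2A, KLF5 and ELF3, with log2 fold changes of -0.22, -0.32 and -0.41. Of 10 markers of bile duct epithelium 4 were tested, and 0 passed in edgeR or DESeq2. MUC1, a membrane mucin, was the one at an unadjusted p-value under 0.05. It had 6.43, 7.34 and 8.49 CPM in the control samples and 3.81, 4.41 and 4.12 CPM in the CLs-treated samples, with a log2 fold change of -0.85 and, from edgeR, adjusted p = 0.292. Of the stromal list, COL3A1, COL1A1 and PDGFRB had log2 fold changes of -0.22, 0.46 and -0.13, and without CLs-1 the COL1A1 means were 94.9 CPM in the CLs-treated group and 87.4 CPM in the control group. In this list 0 of the 4 tested genes passed in either tool or had an unadjusted p-value under 0.05. KRT4, a type II keratin of mucosal epithelia, had 6, 11 and 24 counts in the control samples and 2, 3 and 0 in the CLs-treated samples. It did not pass the filter on low counts here, whereas the study lists it among its differentially expressed genes.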
